A study of Arabidopsis thaliana with 12 samples.

Results

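The genes described here are the 50 that gave a bright hybridization signal in wild-type Arabidopsis thaliana, out of 3439 spots on an expression array. They were chosen by their wild-type level: a spot had to be annotated to exactly 1 gene, to have a median deposited intensity of at least 1 over the 6 wild-type arrays, and to have values above 0 on at least 4 arrays of each genotype. Of 692 spots with 1 gene, 551 had enough values and 59 of these met the intensity threshold. A further 8 of the 59 were left out by name and PSB27, a photosystem II assembly factor, was left out with them, because these 9 genes are not treated here. Choosing by wild-type level makes the wild-type values a description, and no test is attached to them.

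RNA came from the toc34 mutant (6 arrays) and from wild type, WT (6 arrays), both in the ecotype Columbia 0 and each hybridized as total RNA. The labels describe toc34 as defective in bringing proteins across the outer membrane of the chloroplast envelope. They name no allele, tissue, age or growth condition, and they leave unsaid whether the 6 arrays of each genotype are separate plants or repeats, so that p-values reflect only array-to-array spread, which may be technical. In tissue RNA, fewer cells of a type and less RNA per cell cannot be told apart. Summed intensity over all spots ran from 1988 to 3105 in toc34 and from 2641 to 3553 in WT, and 2784 to 2974 spots per array were above 0.

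Most chloroplast proteins are encoded in the nucleus, made in the cytosol and brought into the organelle through the TOC complex of the outer envelope membrane and the TIC complex of the inner membrane. TOC34 is a GTP-binding receptor of the TOC complex that recognizes the transit peptides of precursor proteins. Impaired import is known to feed back on the expression of nuclear genes for chloroplast proteins. A spot's intensity depends on its own sequence and length as well as on the transcript, so the brightness of different genes is an order of signals and not of transcript numbers.

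Of the 50 genes, 45 carry only a locus tag in the annotation used here, and no function is given for them. The other 5 have a name. NdhS, also called CRR31, is a subunit of the chloroplast NADH dehydrogenase-like complex, which passes electrons from ferredoxin to plastoquinone around photosystem I. XERICO is a RING-type zinc finger protein linked to abscisic acid and drought tolerance. DI21 is a gene induced by drought. CML30 is a calmodulin-like calcium sensor, and PRA1.B6 is a prenylated RAB acceptor of the endomembrane system. All 50 are annotated as protein coding, and all 50 were above 0 on all 12 arrays.

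DI21 rose in toc34, and the test called none of the other 4 named genes. Its intensity had a lowest value of 1.78, a median of 2.66 and a highest value of 3.25 in toc34, against 0.636, 1.05 and 1.53 in WT. Every toc34 array lay above every WT array. On quantile-normalized log2 values, which give every array the same distribution, DI21 was 2.86-fold higher in toc34, a log2 difference of 1.52 (SE 0.23, limma adjusted p = 0.000325).

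NdhS had a lowest intensity of 12.2, a median of 17.7 and a highest value of 23.8 in toc34, against 17.7, 20.3 and 26.0 in WT. The groups overlapped, and the direction depended on the scale: the log2 difference was 0.48 after quantile normalization (95% interval 0.05 to 0.91, adjusted p = 0.0790) and -0.26 on the deposited scale. XERICO, at a median of 2.85 in toc34 and 2.87 in WT, had a log2 difference of 0.31 (95% interval -0.07 to 0.68, adjusted p = 0.187). CML30 had a median of 0.901 in toc34 and 1.42 in WT and a log2 difference of -0.13 (95% interval -0.51 to 0.25, adjusted p = 0.600). PRA1.B6 had a median of 1.10 in toc34 and 2.16 in WT and a log2 difference of -0.85 (95% interval -1.58 to -0.13, adjusted p = 0.0644). With the replicate number as a block PRA1.B6 was called (adjusted p = 0.0358), as it was on the deposited scale (adjusted p = 0.0171), but not with that block on averaged neighbouring numbers (adjusted p = 0.167).

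**Figure D1:**
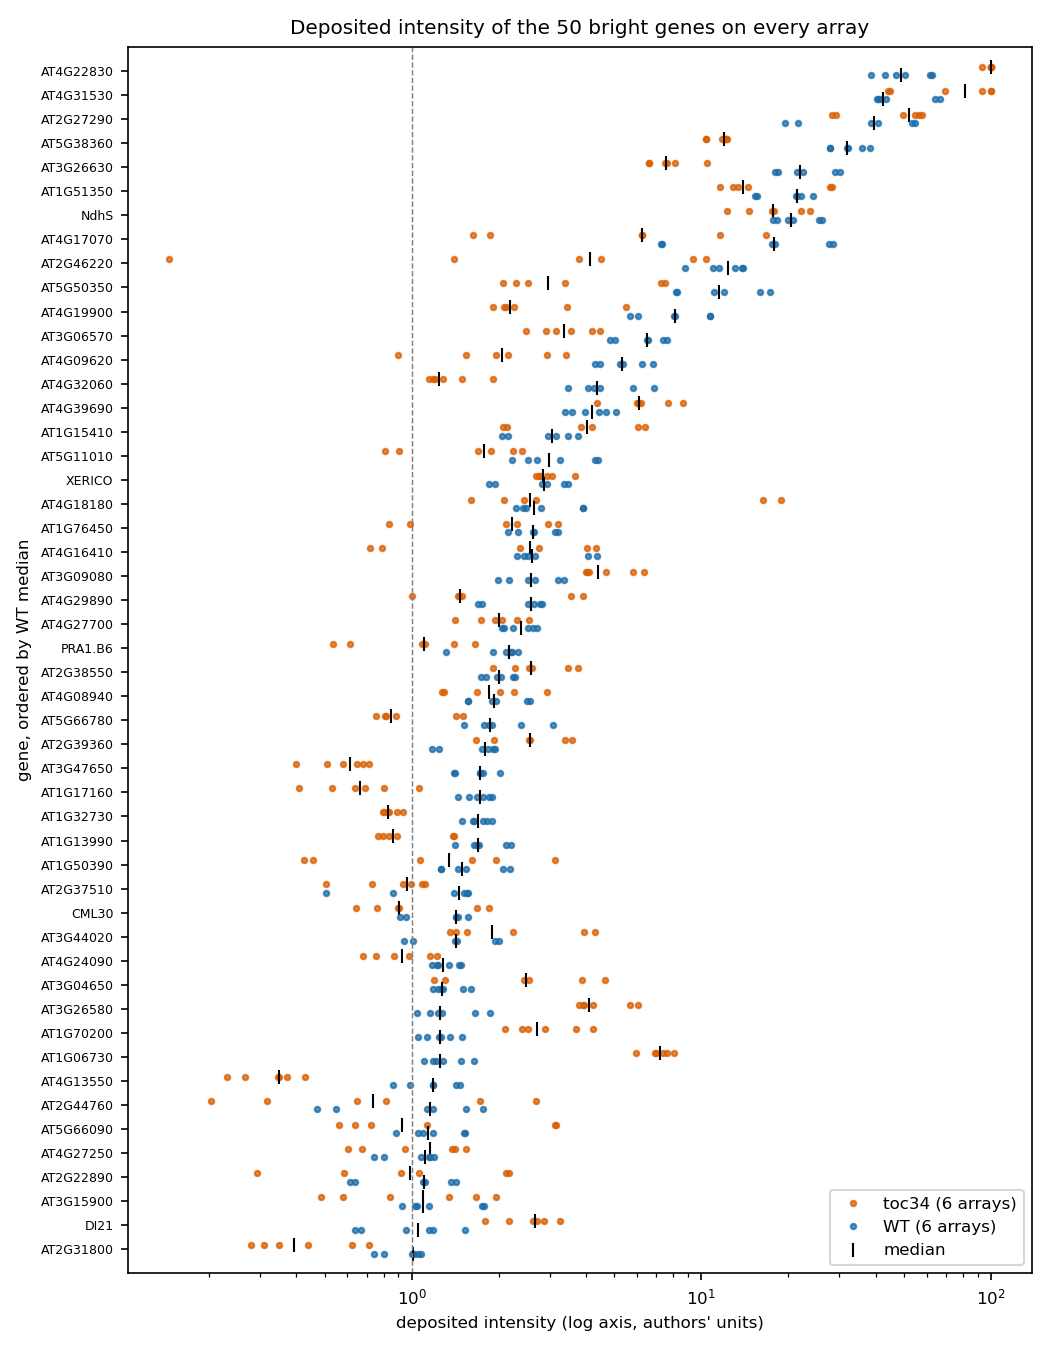
Deposited intensity (log axis) of each of the 50 genes on every array, ordered by WT median, with toc34 points above WT points, a black tick at each median and a dashed line at the threshold of 1. The WT points of a gene lie close together for most genes, whereas toc34 points spread more widely and lie clearly apart from WT for genes such as AT1G06730 and AT4G32060.

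The wild-type levels spanned 48.3-fold, from a median of 1.01 for AT2G31800 to 48.8 for AT4G22830. A WT median of at least 10 was reached by 10 genes, 16 lay from 2 to 10, and 24 lay below 2. The 5 brightest genes carried 57.2% to 65.1% of the summed intensity of the 50 genes on toc34 arrays and 51.6% to 53.7% on WT arrays, so a handful of spots held most of the signal. The 50 genes together made up 13.9% to 17.7% of the array total in toc34 and 11.2% to 13.2% in WT. These shares do not describe most of the genes, since 35 had a lower median in toc34 and 15 a higher one. Their sum averaged 384 in toc34 and 368 in WT, and the array total 2489 and 2976. In toc34 and WT, AT4G22830 averaged 98.8 and 50.5 and AT4G31530 75.3 and 49.5, both with toc34 values at the ceiling. The rest of the 5 brightest averaged 46.1 and 38.0 (AT2G27290), 11.5 and 32.3 (AT5G38360), and 7.80 and 23.2 (AT3G26630). The sum of the 50 genes was highest on arrays 3 and 4 in both genotypes, at 452 and 432 in toc34 and 462 and 466 in WT. It was lowest on arrays 5 and 6, at 289 and 298 in toc34 and 299 and 302 in WT.

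**Figure D2:**
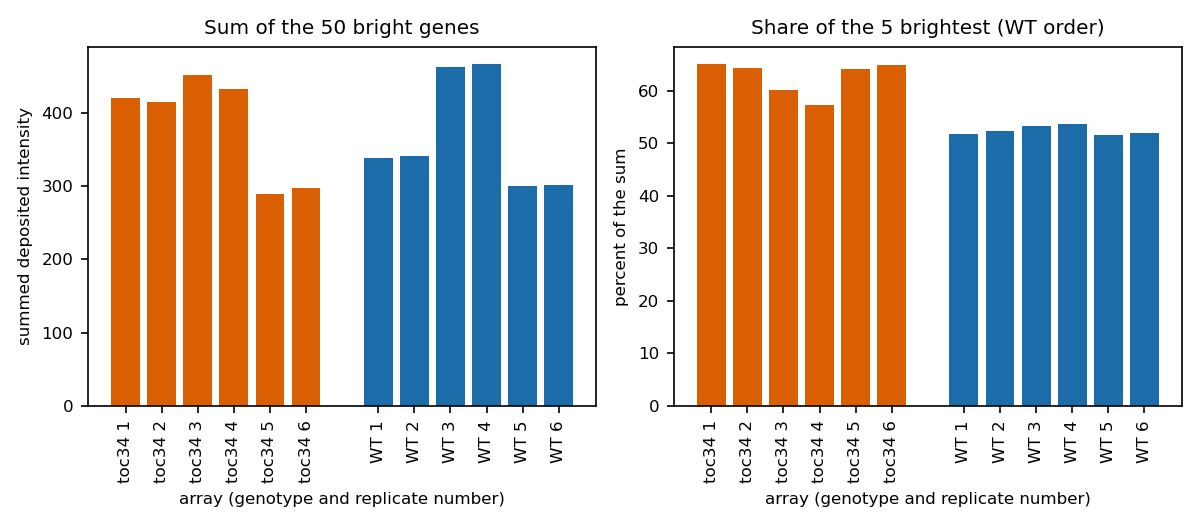
Bars give, for each array, the summed deposited intensity of the 50 genes (left) and the percent of that sum held by the 5 genes brightest in WT (right), with toc34 replicates left of WT replicates. Neighbouring replicate numbers are alike, and the share of the 5 genes is above 57% on every toc34 array and below 54% on every WT array. AT4G22830 and AT4G31530, with toc34 values at the ceiling of 100, are among these 5 genes.

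Among the 50 genes, the 3 brightest in WT were all higher in toc34. This order does not count the genes that were left out or other spots, and AT4G22830 stood at rank 8 of all spots in WT. AT4G22830 stood at the table's ceiling of 100 on 5 of the 6 toc34 arrays and at 92.8 on the other, against a lowest value of 38.4, a median of 48.8 and a highest value of 62.4 in WT. It rose 2.13-fold after normalization (log2 difference 1.09, SE 0.12, limma adjusted p = 3.15e-05) and 1.99-fold on the deposited scale (0.99, adjusted p = 0.000695), where its 5 ceiling values are lower bounds. The normalized estimate rests on the same 5 ceiling values. Its log2 SD was 0.055 in toc34 and 0.15 in WT, so the SE and p may understate the spread in toc34. With ceiling values taken as missing, this gene had too few values to be fitted. AT4G31530 had a lowest value of 44.2, a median of 81.3 and a highest value at the ceiling, reached on 2 arrays, in toc34, against 40.3, 42.6 and 66.9 in WT.

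The deposited intensities of AT4G31530 overlapped between genotypes and its normalized values did not. It rose 1.81-fold (0.86, SE 0.16, adjusted p = 0.00108), a call that ended on the deposited scale (1.47-fold, 0.56, adjusted p = 0.132). Deposited intensity averaged 75.3 ± 26.3 in toc34, where the 2 ceiling values are lower bounds, and 49.5 ± 12.5 in WT (SD, n = 6 arrays each). AT2G27290 had a lowest value of 28.3, a median of 52.3 and a highest value of 57.9 in toc34, against 19.4, 39.6 and 54.6 in WT, with arrays 5 and 6 lowest in both genotypes. It rose 1.84-fold (0.88, SE 0.20, adjusted p = 0.00503), and this call too ended on the deposited scale (0.32, adjusted p = 0.469).

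The next brightest genes went the other way or were not called. AT5G38360 had a lowest intensity of 10.4, a median of 11.98 and a highest value of 12.2 in toc34, against 27.8, 31.9 and 38.3 in WT. AT3G26630 had 6.59, 7.55 and 10.4 in toc34, against 17.9, 21.9 and 30.0 in WT. In both genes every toc34 array lay below every WT array. In toc34, AT5G38360 was 1.78-fold lower (log2 difference -0.83, SE 0.18, limma adjusted p = 0.00334) and AT3G26630 was 2.06-fold lower (-1.04, SE 0.15, adjusted p = 0.000222). On the deposited scale these differences were -1.48 and -1.56, so quantile normalization made them smaller.

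AT1G51350 had a log2 difference of 0.49 after quantile normalization (adjusted p = 0.0630) and of -0.23 on the deposited scale. Its toc34 arrays 3 and 4 stood at 27.8 and 28.2, above every WT array, and the other 4 toc34 arrays at 11.6 to 14.4, below every WT array. AT4G17070 ran from 1.63 to 16.7 in toc34, with a median of 6.23, and from 7.25 to 28.6 in WT, with a median of 17.8. Its differences all ran downward within neighbouring numbers, at -1.82, -0.57 and -0.97 for arrays 1 and 2, 3 and 4, and 5 and 6. It was not called without a block (-1.12, SE 0.52, adjusted p = 0.115) and was called with the replicate number as a block (adjusted p = 0.0103), but not with that block on averaged neighbouring numbers (adjusted p = 0.102). AT2G46220 ran from 0.145 to 10.4 in toc34 (median 4.14) and from 8.79 to 13.9 in WT (median 12.3), and its difference of -1.87 was not called (SE 0.86, adjusted p = 0.109).

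Over the 50 genes, 13 rose and 14 fell in toc34 and 23 were not called (limma, Benjamini-Hochberg adjusted p under 0.05 over all 2768 spots tested). The 27 calls are 54.0% of the genes, against 36.0% of all spots tested, 17.2% higher and 18.9% lower. Equally bright spots with several genes or no listed gene were called in 175 of 289 cases, or 60.6%, and dimmer spots with 1 gene in 167 of 483, or 34.6%, so the share of the 50 genes lay nearer to that of other bright spots. The median log2 difference was -0.14 over the 50 genes, -0.43 over the 289 equally bright other spots and -0.05 over all spots tested. Of the 50 genes, 15 were called at more than 2-fold, 7 higher and 8 lower, against 21.0% of all spots tested and 88 of the 289 equally bright other spots.

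The balance of directions depends on which genotype set the threshold. A median of at least 1 in toc34 in place of WT selected 46 genes, 37 of them shared with the 50, and of these 46, 21 rose and 8 fell with a median log2 difference of 0.51. With the median over all 12 arrays 16 rose and 12 fell among 50 genes. Keeping the 9 genes that were left out gave 14 higher and 18 lower among 59, with a median of -0.28. Nothing is therefore read from the near-even split of 13 and 14. On the deposited scale, where the median of all spots was -0.20 against -0.05 after quantile normalization, 24 of the 50 genes were called, 8 higher and 16 lower, against 33.4% of all spots, 12.1% higher and 21.3% lower.

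**Figure D3:**
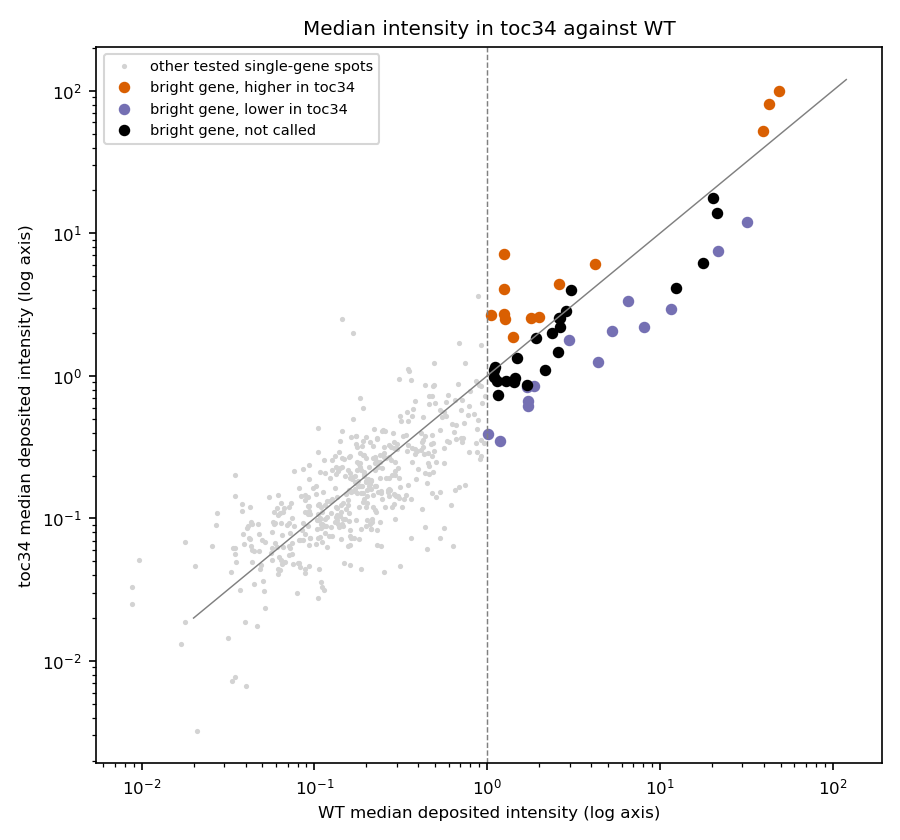
Median deposited intensity in toc34 (vertical, log axis) against WT (horizontal, log axis) for the 50 genes, coloured by the call, and for other tested spots with 1 gene in grey, with the line of equality and a dashed line at the WT threshold of 1. The 50 genes lie on both sides of the line, with AT1G06730 farthest above it, and 13 of them fall below an intensity of 1 in toc34.

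Neighbouring replicate numbers resembled each other, which bears on every call. After normalization the median gap between neighbouring arrays (1 and 2, 3 and 4, 5 and 6), over the 50 genes, was 0.17 on the log2 scale in toc34 and 0.09 in WT, against 0.45 and 0.21 between other arrays of toc34 and of WT. All 27 calls were kept with neighbouring numbers as a random block, which called 27 of the 50 genes and 625 of the 2768 spots tested (22.6%). All 27 were also kept whichever of the 12 arrays was left out. Leaving out 1 array keeps its similar neighbour in the fit, so this is a weak check. Averaging neighbouring numbers to 3 values per genotype kept 12 of the 27 calls. That fit called 12 of the 50 genes and 381 of the 2768 spots tested (13.8%). The 12 were AT1G06730, AT3G26580, DI21, AT1G70200, AT4G22830 and AT3G09080, which were higher, and AT4G13550, AT4G32060, AT5G50350, AT3G47650, AT1G17160 and AT3G26630, which were lower. Averaging and the replicate block together called 6 of the 50 genes and 203 of the 2768 spots tested (7.33%). The 6, all among the 27, were AT1G06730, AT3G26580, AT1G70200, AT4G13550, AT4G32060 and AT3G47650.

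The largest increase among the 50 genes was that of AT1G06730. Its intensity had a lowest value of 5.95, a median of 7.20 and a highest value of 8.05 in toc34, against 1.11, 1.25 and 1.63 in WT. It stood at rank 53 among all 3439 spots in toc34 and at rank 290 in WT. The rise was 6.61-fold (log2 difference 2.72, SE 0.21, limma adjusted p = 2.06e-06).

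AT3G26580 had a lowest intensity of 3.78, a median of 4.08 and a highest value of 6.03 in toc34, against 1.04, 1.25 and 1.86 in WT, and rose 4.03-fold (2.01, SE 0.13, adjusted p = 6.43e-07). It lies 7 protein-coding genes from AT3G26630, which fell, and these were the closest neighbours among the 50 genes. AT1G70200 had 2.10, 2.70 and 4.22 in toc34, against 1.05, 1.25 and 1.49 in WT, and rose 2.59-fold (1.37, SE 0.13, adjusted p = 9.50e-06). AT3G09080 had 4.01, 4.39 and 6.32 in toc34, against 1.99, 2.59 and 3.34 in WT, and rose 2.12-fold (1.09, SE 0.12, adjusted p = 3.31e-05). In AT3G26580, AT1G70200 and AT3G09080 every toc34 array lay above every WT array.

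The remaining increases were smaller than these. AT3G04650 rose 2.002-fold (1.001, SE 0.20, adjusted p = 0.00180). In deposited intensity its toc34 arrays 5 and 6, at 1.30 and 1.19, lay within the WT range of 1.18 to 1.60, and arrays 1 to 4 at 2.44 to 4.64 lay above it. AT3G44020 ran from 1.36 to 4.28 in toc34 and from 0.939 to 2.01 in WT and rose 1.78-fold (0.83, SE 0.22, adjusted p = 0.0113). After normalization every toc34 array lay above every WT array in AT3G04650 and AT3G44020. Both calls ended on the deposited scale, with adjusted p of 0.0676 for AT3G04650 and 0.163 for AT3G44020. The other 3 increases were AT4G39690 (log2 difference 0.82), AT2G39360 (0.80) and AT2G38550 (0.54), the last not called on the deposited scale (adjusted p = 0.109).

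The largest called decreases were those of AT4G13550 and AT4G32060. AT4G13550 had a lowest intensity of 0.230, a median of 0.347 and a highest value of 0.429 in toc34, against 0.865, 1.18 and 1.46 in WT, and was 3.22-fold lower, a log2 difference of -1.69 (SE 0.17, limma adjusted p = 1.28e-05). AT4G32060 had 1.15, 1.24 and 1.91 in toc34, against 3.46, 4.36 and 6.89 in WT, and was 2.99-fold lower (-1.58, SE 0.14, adjusted p = 6.68e-06). The genotypes did not overlap in either gene. AT4G13550 stood at rank 809 of all spots in toc34 and at rank 297 in WT.

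AT5G50350 had a lowest intensity of 2.07, a median of 2.95 and a highest value of 7.503 in toc34, against 8.18, 11.5 and 17.3 in WT, and was 2.73-fold lower (-1.45, SE 0.26, adjusted p = 0.00102). AT4G19900 had 1.91, 2.19 and 5.48 in toc34, against 5.67, 8.09 and 10.8 in WT, and was 2.61-fold lower (-1.38, SE 0.31, adjusted p = 0.00414). AT3G47650 had 0.399, 0.613 and 0.712 in toc34, against 1.40, 1.73 and 2.03 in WT, and was 2.55-fold lower (-1.35, SE 0.18, adjusted p = 0.000119). In these 3 genes, too, all toc34 arrays lay below all WT arrays.

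AT4G09620 had a lowest intensity of 0.898, a median of 2.05 and a highest value of 3.403 in toc34, against 4.28, 5.31 and 6.83 in WT, and was 2.33-fold lower (-1.22, SE 0.30, adjusted p = 0.00731). AT1G17160 had 0.408, 0.662 and 1.06 in toc34, against 1.44, 1.72 and 1.89 in WT, and was 2.29-fold lower (-1.20, SE 0.15, adjusted p = 9.12e-05). AT5G11010 had 0.807, 1.78 and 2.41 in toc34, against 2.22, 2.97 and 4.41 in WT, and was 1.86-fold lower (-0.90, SE 0.18, adjusted p = 0.00213). The deposited ranges of AT5G11010 overlapped, while those of AT4G09620 and AT1G17160 did not. After normalization the ranges of AT4G09620 overlapped, while those of AT5G11010 and AT1G17160 did not. The other decreases were AT5G66780 (log2 difference -0.89), AT1G32730 (-0.82), AT3G06570 (-0.60) and AT2G31800, given below with the threshold.

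**Figure D4:**
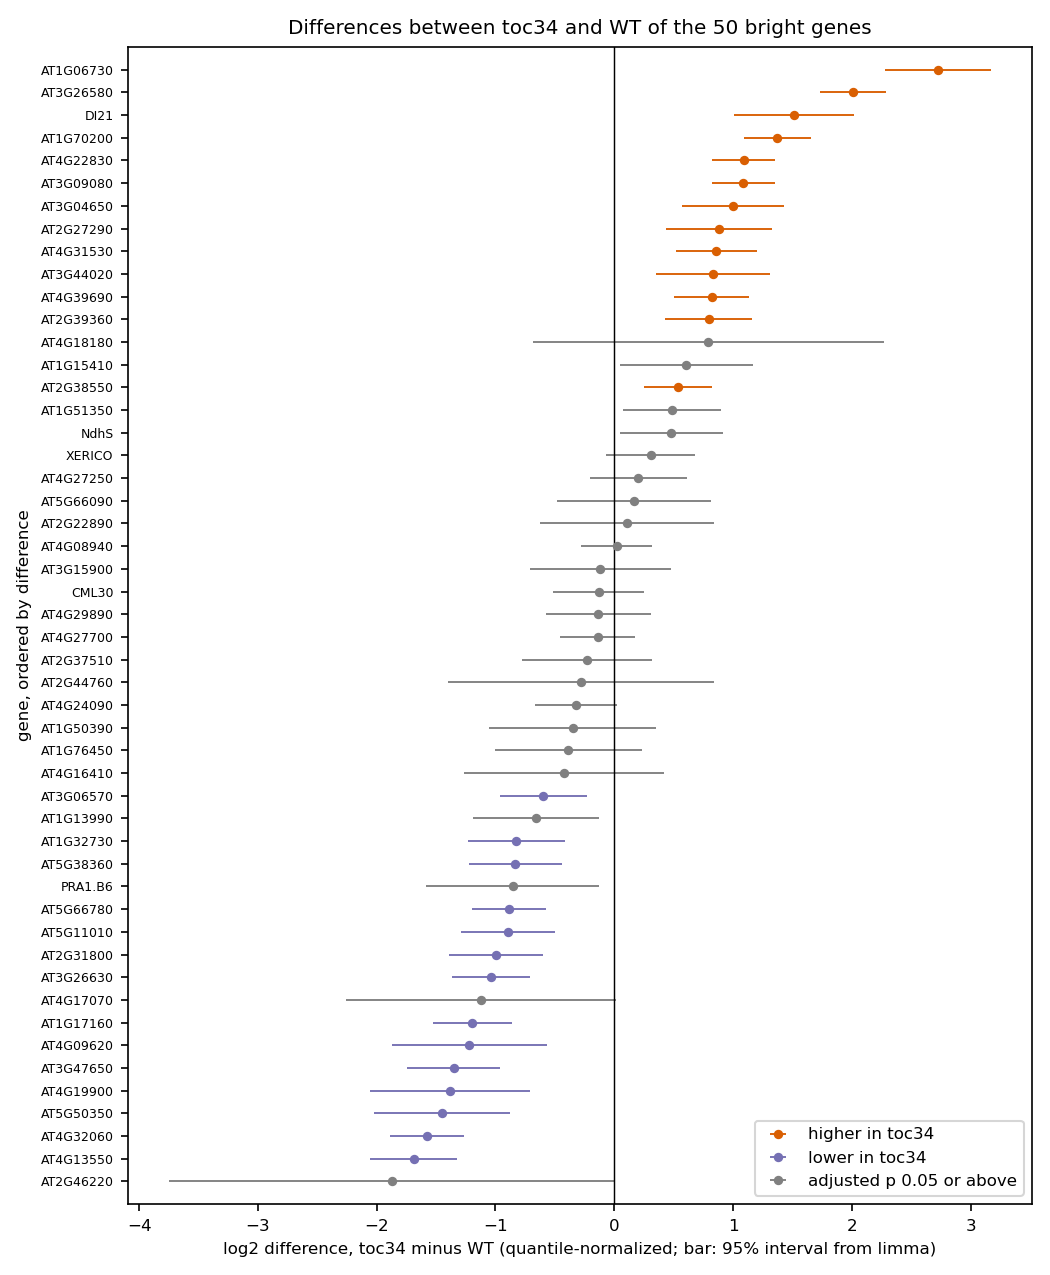
Log2 difference, toc34 minus WT, of each of the 50 genes after quantile normalization, with the 95% interval from limma and the call in colour. Differences run from -1.87 for AT2G46220, which was not called, to 2.72 for AT1G06730.

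The quantile-normalized ranges of the genotypes did not overlap in 24 of the 50 genes, 13 with toc34 above and 11 with toc34 below, against 25.7% of the 2337 spots measured on all arrays (12.6% above and 13.1% below). On the deposited scale the ranges did not overlap in 20 genes, 6 with toc34 above and 14 with toc34 below, against 23.0% of spots (7.70% above and 15.3% below). Quantile normalization moved the difference of each of the 50 genes upward by at least 0.10 on the log2 scale. The 7 largest shifts, of 0.30 to 0.75, were those of genes with WT medians from 17.8 to 42.6. The sign turned in 4 uncalled genes, NdhS, AT1G51350, AT4G08940 and AT2G22890, which had positive differences after quantile normalization. Of the 27 calls 22 held on the deposited scale, and the 5 that did not, AT4G31530, AT2G27290, AT3G04650, AT3G44020 and AT2G38550, were all increases. PRA1.B6 and AT1G13990, not called after quantile normalization, were called lower on the deposited scale.

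**Figure D5:**
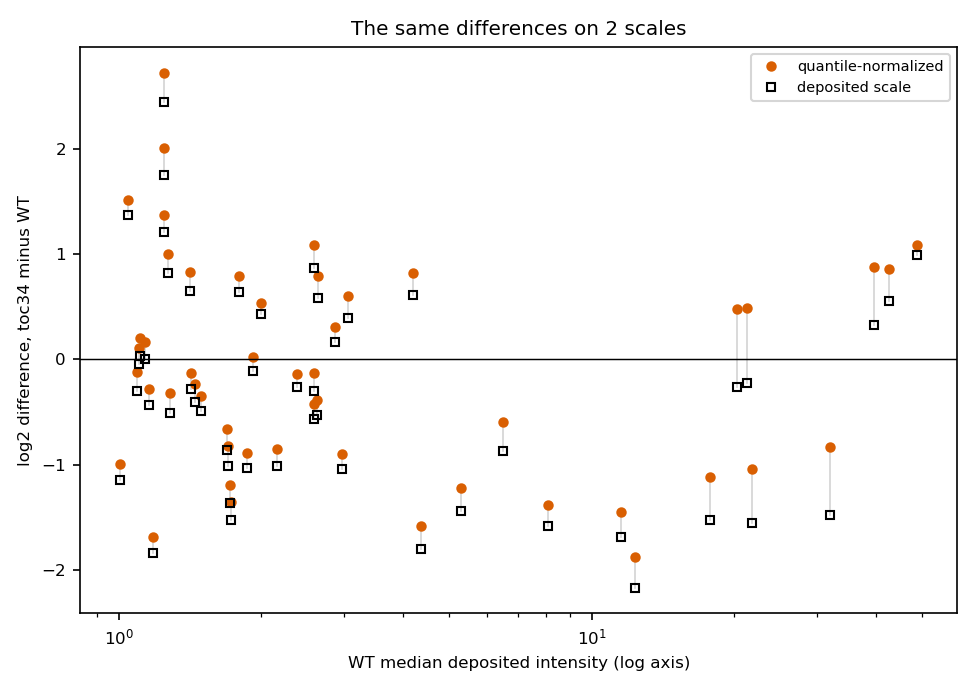
Log2 difference, toc34 minus WT, of the 50 genes against WT median intensity (log axis), after quantile normalization (filled circles) and on the deposited scale (open squares), with a grey line joining the 2 values of a gene. Each circle lies above its square, and the gap is 0.65 on the log2 scale for AT5G38360.

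Levels varied more between toc34 arrays than between WT arrays. The SD of normalized log2 intensity over 6 arrays had a median over the 50 genes of 0.36 in toc34 and 0.17 in WT, and it was larger in toc34 for 40 of the 50 genes. Over all tested spots these medians were 0.58 in toc34 and 0.31 in WT, and over the 289 equally bright other spots 0.33 in toc34 and 0.17 in WT, so the spread of the 50 genes was near that of other bright spots. On the deposited scale the medians over the 50 genes were 0.48 in toc34 and 0.31 in WT, against 0.63 and 0.33 over all tested spots, which left little of that gap in WT.

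Much of the toc34 spread lay between pairs of neighbouring numbers. The highest and the lowest of the 3 pair means were more than 2-fold apart in 16 genes in toc34 and in 3 genes in WT. AT4G18180 stood at 18.9 and 16.3 on toc34 arrays 1 and 2 and at 1.60 to 2.69 on the other 4, against 2.28 to 3.91 on all WT arrays. Its difference of 0.79 had a 95% interval of -0.69 to 2.27 (limma adjusted p = 0.394), and it was 3.13 within arrays 1 and 2, -0.74 within 3 and 4 and -0.02 within 5 and 6. AT2G46220 was also highest on toc34 arrays 1 and 2, at 10.4 and 9.39. It was lowest on arrays 5 and 6, at 0.145 and 1.40, against 8.79 to 13.9 in WT.

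AT4G16410 likewise had 4.02 and 4.31 on toc34 arrays 1 and 2 and 0.788 and 0.716 on arrays 5 and 6, against 2.31 to 4.38 in WT. AT2G44760 followed the pair numbers in both genotypes: it had 0.202 and 0.317 on toc34 arrays 1 and 2 and 1.72 and 2.69 on arrays 3 and 4, and in WT 0.550 and 0.470 on arrays 1 and 2 and 1.77 and 1.54 on arrays 3 and 4. AT4G17070 followed them in the same way. Of the 23 uncalled genes 7 had the same sign within all 3 pairs of numbers. The share over all spots was not computed, so nothing is read from this count. AT4G18180, AT4G16410 and AT2G44760 were picked out after their values had been seen.

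AT4G08940, with a median of 1.85 in toc34 and 1.93 in WT, had the smallest difference after quantile normalization among the 50 genes, 0.02 on the log2 scale (95% interval -0.28 to 0.32), and one of -0.11 on the deposited scale. AT4G27700 had a median of 2.002 in toc34 and 2.38 in WT and a difference of -0.14 (95% interval -0.45 to 0.17). These intervals leave out changes of 2-fold, whereas that of AT4G18180 does not. Both genes were chosen for mention after their values had been seen.

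The last genes to pass the threshold were AT3G15900, DI21 and AT2G31800, with WT medians of 1.09, 1.05 and 1.01. The toc34 medians of these genes were 1.09, 2.66 and 0.393. AT2G31800 was 1.99-fold lower, a log2 difference of -0.99 (SE 0.18, limma adjusted p = 0.00112), and AT3G15900 was not called (-0.12, adjusted p = 0.771), with a sign that turned to 0.065 without toc34 replicate 1 and to 0.027 without toc34 replicate 2. Just below the threshold lay AT2G15440 with a median of 0.717 in toc34 and 0.971 in WT, OTP70 with 0.341 in toc34 and 0.955 in WT, and AT2G04790 with 0.644 in toc34 and 0.934 in WT.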

How the data were processed

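Total RNA of toc34 (6 samples) and WT (6 samples) was measured on 1 array each, and sample titles gave genotype and replicate number. The deposited spot values were treated as linear intensity because of their range and skew. Their unit, scanner, background correction and scaling are not given in the sources used here. Values ran from 0 to a ceiling of 100, reached 20 times in toc34 and 1 time in WT, and 465 to 655 spots per array were at 0, which a background subtraction could have produced. The number of arrays limits the precision.

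Zeros were set to missing, and log2 intensities were quantile-normalized because array medians differed by up to 0.50. Spots with at least 4 values in each genotype (2768) entered limma 3.58.1 (R 4.3.3; lmFit, eBayes), without covariates. P-values are two-sided, Benjamini-Hochberg adjusted over all tested spots, with a threshold of 0.05. Intensities printed per array are deposited values. On simulated data for this comparison, with 200 of 2768 spots changed, 54% of changes of 1 and 86% of changes of 2 in log2 were recovered, with 3 false calls. The simulated arrays were drawn independently, whereas neighbouring arrays in the data resembled each other. The simulation therefore cannot tell how many of the calls made here are false.

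Same-numbered toc34 and WT arrays deviated together from their genotype means (correlations of 0.12, 0.15, 0.22, 0.26, 0.16 and 0.18 for numbers 1 to 6). A pairing by number was therefore considered, on the strength of the values and with no label to say so. Correlations between differently numbered arrays are not given here, so pairing by number is not told apart from the likeness of neighbouring numbers. The main design has no block, so its p-values ignore any such pairing, and the replicate block was an alternative. A random block of neighbouring numbers had a consensus correlation of 0.54 (statmod 1.5.0).

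Genes came from the platform annotation, updated through gene identifiers with a RefSeq table of TAIR10.1, which matched 690 of 692 spots with 1 gene and all 50 genes here. Coordinates are not printed here. Gene starts in the RefSeq table gave the order of protein-coding genes from which neighbours were counted. Function classes had been planned from RefSeq product names, which the table used does not give, so none were formed. The naming rule took the 12 brightest genes in WT, the 10 largest called increases and the 10 largest called decreases, and those nearest the threshold. The genes that have a name were added later. The genes, rules and lists were chosen with earlier results of these data known.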

Additional observations from a re-analysis of the deposited data

Results flagged for a closer look

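For the 27 genes of the naming rule and 4 array summaries, in each genotype, 62 groups of 6 arrays were checked with Dixon's ratio of an outlying array's gap to the whole range. In 1 group the ratio passed its 95% critical value, where chance alone gives about 3.1 if arrays are independent. That group was NdhS in WT, with a ratio of 0.637: the normalized log2 intensity was 3.93 on replicate 5 and 4.06 to 4.14 on the rest. Neighbouring arrays resembled each other, and a similar neighbour can hide an outlying array from this ratio. The low number of groups found therefore does not show that outlying arrays are absent.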

How the results depend on the processing

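The count of 27 called genes stayed within 1.5 times, at 23 to 32, except with neighbouring numbers averaged (12), averaged with the replicate block (6), a WT threshold of 0.5 (56 of 106 genes, 17 higher and 39 lower) or of 2 (14 of 26), or a further demand of 2-fold (15). All but the last change the number of values or of genes. A similar count need not hold the same genes. Within numbers 1 and 2, 3 and 4, and 5 and 6, 27, 28 and 23 of the 50 genes were called. Over all spots these fits called 745 of 2653, 778 of 2507 and 560 of 2623. Each rests on 2 arrays per genotype with neighbouring numbers, which resembled each other. Of the 27 main calls, 20, 22 and 16 were kept in these fits. The replicate block gave 29 (13 higher, 16 lower), against 1010 of 2768 spots. It added AT4G17070 and PRA1.B6, neither of them called with the block on averaged numbers. Without AT4G22830, 26 of 49 were called. With 1 array left out it was 27 to 31. Calls over all spots moved from 997 to 625 with the random block, 381 averaged, 203 averaged with the replicate block and 560 within numbers 5 and 6. The median difference of -0.14 was -0.041 with cyclic loess, -0.30 on the deposited scale, -0.015 within numbers 1 and 2, -0.028 within 3 and 4, -0.36 and -0.26 at thresholds of 0.5 and 2, -0.049 chosen on all arrays, -0.28 with the 9 genes kept and 0.51 when chosen on toc34, and ran from -0.21 to -0.07 with 1 array left out. The median SD in WT was 0.31 on the deposited scale and 0.26 centred on medians. Of 728 values of 27 single genes, 657 stayed on their side of the threshold with the same sign, 48 were no longer called, 15 became called and 8 turned sign: AT1G51350 to -0.13 centred and -0.23 deposited, NdhS to -0.17 and -0.26, and AT3G15900 to 0.0498 within 3 and 4, 0.47 within 5 and 6, and, with 1 array left out, from -0.27 to 0.065, positive without toc34 replicate 1 or 2. The random block, the averaging, the fits within numbers and the thresholds were planned; leaving out AT4G22830 and the 2-fold demand were chosen after seeing the data. The cause of these shifts was not tested.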
